A study of Mus musculus with 2 samples.

Results

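The genes described here are 8 chaperones and disulfide isomerases of the endoplasmic reticulum (ER), *Hspa5*, *Hsp90b1*, *Calr*, *Canx*, *Pdia3*, *P4hb*, *Pdia4* and *Pdia6*, in sections of mouse skin. They were chosen by symbol, with results of these data already known. Levels of the same 4 sections informed the choice, so the values below are descriptions. Of the 8, 7 have a row among the 19465 genes measured; *Pdia6* was not analysed here. Transcripts were counted on Visium slides, on which barcoded spots capture probe products from the tissue lying over them. All skin came from female SKH-1 mice, a hairless strain, aged 10 to 12 weeks. The control section was normal skin. The UVR section came from skin exposed to ultraviolet radiation (UVR). The other sections came from UVR-exposed skin treated with 0.1% retinol (the retinol section) or with 0.03% 9-cis HPR (the HPR section, spelled as in the labels). The concentrations of these agents differ. Each group had 1 section, so variation between animals was not measured, no p-value was computed, and every interval covers counting error only.

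Proteins that enter the ER are folded there before they reach the cell surface or leave the cell. The chaperones bind unfolded chains, and the disulfide isomerases form and rearrange the disulfide bonds that hold a fold. *Hspa5* encodes BiP, the main Hsp70-type chaperone of the ER, and *Hsp90b1* encodes its Hsp90-type partner GRP94. *Calr* (calreticulin) and *Canx* (calnexin) bind newly made glycoproteins through their sugars, and *Pdia3* (ERp57) works with both on disulfide bonds and in loading MHC class I molecules. *P4hb* encodes the founding protein disulfide isomerase, which is also a subunit of the collagen prolyl hydroxylase, and *Pdia4* and *Pdia6* encode further isomerases. When unfolded proteins accumulate, the unfolded protein response raises many of these genes through ATF6 and XBP1. Epidermal keratinocytes make secreted and membrane proteins such as desmosomal cadherins, laminins and lipid-processing enzymes, all of which fold in the ER.

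Several of these genes share a promoter motif, the ER stress response element, whose letters are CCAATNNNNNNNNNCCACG. The promoters of the 4 members with enough UMIs to be compared below are shown to make that motif visible. Sequences are RefSeq's for GRCm38.p6 and run 5′ to 3′ on the gene's strand over the 250 bases before the start. They lie at chr2:34771840-34772089 on the plus strand for *Hspa5*, chr10:86705445-86705694 on the minus strand for *Hsp90b1*, chr8:84846932-84847181 on the minus strand for *Calr* and chr2:121413652-121413901 on the plus strand for *Pdia3*. Capitals mark matches on either strand to the motif or to the same letters without the last G, and in *Hspa5* also a match to TGACGTG.
Hspa5: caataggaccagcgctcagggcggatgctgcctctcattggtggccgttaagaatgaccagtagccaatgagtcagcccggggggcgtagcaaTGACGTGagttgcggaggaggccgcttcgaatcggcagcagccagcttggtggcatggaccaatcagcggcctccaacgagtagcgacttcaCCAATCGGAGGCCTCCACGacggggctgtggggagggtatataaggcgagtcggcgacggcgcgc
Hsp90b1: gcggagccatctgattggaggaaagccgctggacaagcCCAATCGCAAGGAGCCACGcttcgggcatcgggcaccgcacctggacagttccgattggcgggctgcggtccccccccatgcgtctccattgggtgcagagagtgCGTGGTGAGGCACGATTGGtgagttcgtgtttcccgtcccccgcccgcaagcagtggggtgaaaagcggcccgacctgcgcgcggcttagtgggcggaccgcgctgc
Calr: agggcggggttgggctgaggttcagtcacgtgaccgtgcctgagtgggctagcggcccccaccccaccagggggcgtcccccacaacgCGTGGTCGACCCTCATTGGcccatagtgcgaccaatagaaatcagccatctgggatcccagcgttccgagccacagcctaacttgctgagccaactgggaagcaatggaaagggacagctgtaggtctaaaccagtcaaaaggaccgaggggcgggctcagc
Pdia3: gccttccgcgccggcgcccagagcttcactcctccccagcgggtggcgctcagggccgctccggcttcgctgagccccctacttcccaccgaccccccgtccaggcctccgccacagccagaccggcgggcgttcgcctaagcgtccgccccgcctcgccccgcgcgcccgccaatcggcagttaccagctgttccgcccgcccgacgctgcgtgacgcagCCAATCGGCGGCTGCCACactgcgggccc

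All 8 members were found among 32851 RefSeq promoter windows, of which only the 250 bases before the start were searched, on both strands. The full motif lay in 37 windows (0.113%), among them those of 5 members, *Hspa5*, *Calr*, *Hsp90b1*, *Canx* and *Pdia6*. In *Hspa5* it ran from 65 to 47 bases before the start, and *Hsp90b1* held 2 matches, 1 on each strand. In *Calr* the match lay on the opposite strand, from 162 to 144 bases before the start. The *Pdia3* window held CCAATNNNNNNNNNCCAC from 29 to 12 bases before the start, without the last G. This shorter form, searched after the *Pdia3* sequence had been seen, lay in 105 windows (0.320%), among them those of 7 members. It overlaps every full match, and the exception was *P4hb*. CCAAT alone, which is part of both forms, lay in 33.9% of windows and in those of all 8 members. TGACGTG lay in 1.65% of windows and, among the members, in *Hspa5* only. TGACGTGG, which contains it, lay in 0.563% of windows and in no member's, and the variant ATTGGNCCACG lay in 0.0304% and in no member's. These matches are descriptions of letters, and no binding was measured. Of 30 other genes with the full motif, 2 had enough UMIs to be compared. They were *Syvn1*, which encodes an ER ubiquitin ligase, and *Acacb*, which is in none of the pathway lists read below. Over whole sections *Syvn1* had ratios of 0.967 for UVR over control, 1.25 for retinol over UVR, 1.02 for HPR over UVR and 0.817 for HPR over retinol. In the same order *Acacb* had 0.162, 1.775, 1.48 and 0.831.

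Spots with at least 200 unique molecular identifiers (UMIs) were kept, 339 in control skin, 647 in UVR skin, 544 in retinol skin and 644 in HPR skin, with 326095 to 2558616 UMIs per section. Spot barcodes mark grid positions, and 430 of them occurred on both slide areas. Levels are in CPM, the UMIs of a gene scaled by all UMIs of a section or region. Probe numbers per gene differ, so levels are compared between sections and not between genes. Control and UVR skin shared 1 capture area, and retinol and HPR skin shared the other, so for the treated sections against UVR skin treatment and capture area cannot be told apart. The labels place groups as upper and lower, which was read by image row. The spot grid runs the other way and would exchange control with UVR skin and retinol with HPR skin. That reading turns every direction within an area, that is for UVR over control and for HPR over retinol. For the other comparisons its values are given with the main results of whole sections and with some of the outer regions. Other ratios by layer or region, and those of some named genes, would change too and are not given by that reading. Joint clustering without the member and pathway genes gave 5 regions. Regions 1, 3 and 4 were called outer, because none of the muscle, fibroblast, macrophage or adipocyte marker lists had a median of 2 or more (log2) there. The sebaceous gland list, which this rule did not use, had a median of 2.435 in region 3. Region 1 was led by genes such as *Mcm5* and *Col7a1*, region 4 by the cornification genes *Cnfn* and *Cdsn*, and region 3 by *Krt77*, *Krt10* and *Scd1*. The middle region 2 was led by genes such as *Trem2* and *Cfd*, and the muscle region 0 by *Myh1* and *Ckm*. Of 159 outer control spots 142 lay in region 3, against 6 of 293 in UVR skin, 21 of 232 in retinol skin and 1 of 243 in HPR skin. The outer comparison with control skin therefore also compares different regions. By the spot grid, the section with most of its outer spots in region 3 would be the UVR one. Which reading is right was not tested. In every section a spot holds several cells, and fewer cells of a type and less RNA per cell cannot be told apart.

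*Pdia3* dominated the members' counts. It stood at 12444 CPM in control skin (95% Poisson interval 12064 to 12833), 9042 in UVR skin (8926 to 9160), 24873 in retinol skin (24614 to 25134) and 19934 CPM in HPR skin (19687 to 20183). Both treated sections were above both untreated ones, and no intervals overlapped. By UMIs it ranked 8th of all genes in control skin, 10th in UVR skin, 2nd in retinol skin and 4th in HPR skin; a rank over genes also reflects their probes. It held 88.5% of all member UMIs in control skin, 82.9% in UVR skin, 89.2% in retinol skin and 91.4% in HPR skin. A sum over the members is therefore close to *Pdia3* alone, and the other members are described one by one. In the outer regions the signal was not held by a few spots: the lower quartile of spots ran from 7454 CPM in UVR skin to 21040 CPM in retinol skin. Between 98.3% and 100% of outer spots had at least 1 *Pdia3* UMI, against 65.1% to 82.6% of muscle spots. The median outer spot carried 12733 CPM in control skin, 10667 in UVR skin, 25526 in retinol skin and 20861 CPM in HPR skin, the same order as the sums.

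**Figure D1:**
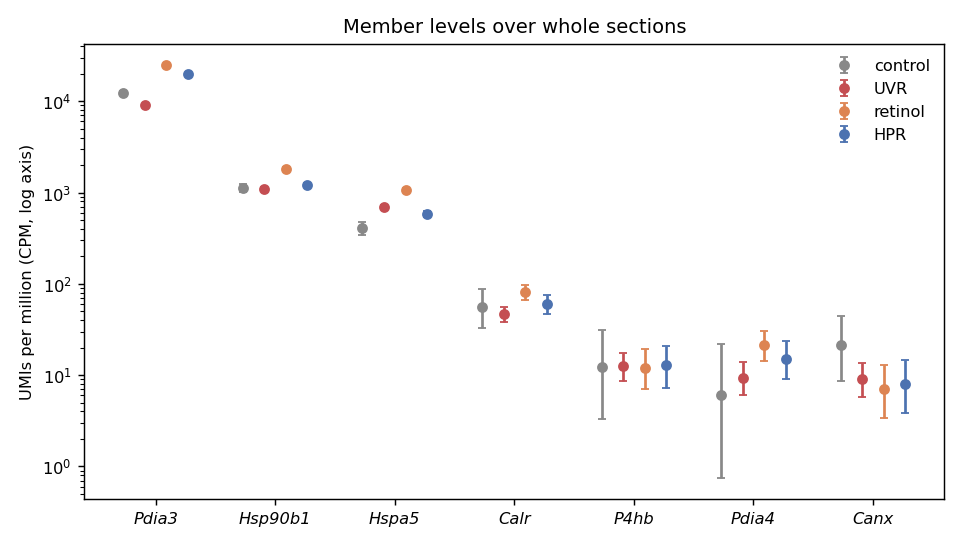
Levels of the 7 measured members over whole sections, in CPM on a log axis; points are the 4 sections and bars are exact 95% Poisson intervals. *Pdia3*, *Hsp90b1*, *Hspa5*, *Calr* and *Pdia4* were highest in retinol skin, while *P4hb* lay between 12.0 and 12.8 CPM everywhere.

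Among the chaperones, *Hspa5* and *Hsp90b1* did not follow the same order over the sections. *Hspa5* was lowest in control skin, with 405 CPM (339 to 480, 132 UMIs). It reached 699 CPM in UVR skin (667 to 732), 1076 in retinol skin (1022 to 1131) and 577 CPM in HPR skin (536 to 621). These 4 intervals did not overlap, and HPR skin lay between control and UVR skin. *Hsp90b1* stood at 1125 CPM in control skin (1013 to 1247), 1094 in UVR skin (1053 to 1135), 1809 in retinol skin (1740 to 1881) and 1208 CPM in HPR skin (1148 to 1271). Retinol skin stood apart from the other 3 for this chaperone, and the control interval overlapped those of UVR and HPR skin. The proportion between the 2 chaperones moved accordingly. For every 100 *Hsp90b1* UMIs there were 36.0 *Hspa5* UMIs in control skin (29.3 to 44.0), 63.9 in UVR skin (60.2 to 67.8), 59.5 in retinol skin (55.8 to 63.4) and 47.8 in HPR skin (43.6 to 52.2). In control and HPR skin this proportion was below that of the other sections.

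The glycoprotein chaperones were read at low counts. *Calr* stood at 55.2 CPM in control skin (32.7 to 87.2, 18 UMIs), 46.5 in UVR skin (38.5 to 55.7), 80.6 in retinol skin (66.5 to 96.8) and 60.0 CPM in HPR skin (47.2 to 75.2). Only retinol and UVR skin had intervals that did not overlap. *Canx* had 7 UMIs in control skin, 23 in UVR skin, 10 in retinol skin and 10 in HPR skin, or 21.5, 8.99, 7.07 and 8.0 CPM in that order. All its intervals overlapped, the control one running from 8.63 to 44.2 CPM, so no difference in *Canx* was detectable at this depth. The disulfide isomerases other than *Pdia3* were equally sparse. *P4hb* stood at 12.3 CPM in control skin (4 UMIs), 12.5 in UVR skin (32 UMIs), 12.0 in retinol skin (17 UMIs) and 12.8 CPM in HPR skin (16 UMIs). Its level was nearly flat, but the retinol over UVR interval, from 0.50 to 1.78, leaves room for differences in either direction. *Pdia4* rested on 2, 24, 30 and 19 UMIs in control, UVR, retinol and HPR skin, which is 6.13, 9.38, 21.2 and 15.2 CPM. Retinol skin was the highest, and its interval (14.3 to 30.3) did not overlap that of UVR skin (6.01 to 14.0).

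By layer, *Pdia3* and *Hsp90b1* were lowest over the muscle in every section, and *Hspa5* in UVR, retinol and HPR skin. In control skin *Hspa5* over muscle rested on 10 UMIs, at 90.1% of the outer level (41.1% to 177%), and was not distinguishable from it. *Pdia3* in the muscle region stood at 1890 CPM in control skin, 794 in UVR skin, 3133 in retinol skin and 3821 CPM in HPR skin. That was 14.4% (11.3% to 18.1%), 7.96% (7.0% to 9.02%), 11.7% (10.5% to 13%) and 18.2% (16.6% to 20%) of the outer level in the same section. The keratin *Krt5*, an epidermal marker, also had UMIs in the muscle region, at 5.01%, 1.84%, 6.20% and 7.67% of its outer level in that order. The part of RNA from outside the muscle in the *Pdia3* signal there was not tested. In the middle region *Pdia3* stood at 16092 CPM in control skin, 14784 in UVR skin, 27185 in retinol skin and 28114 CPM in HPR skin. Over the outer level of its section this was 1.22-fold (1.14 to 1.31), 1.48-fold (1.41 to 1.56), 1.02-fold (0.974 to 1.06) and 1.34-fold (1.29 to 1.40). Only in retinol skin did the interval of that ratio include 1.

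**Figure D2:**
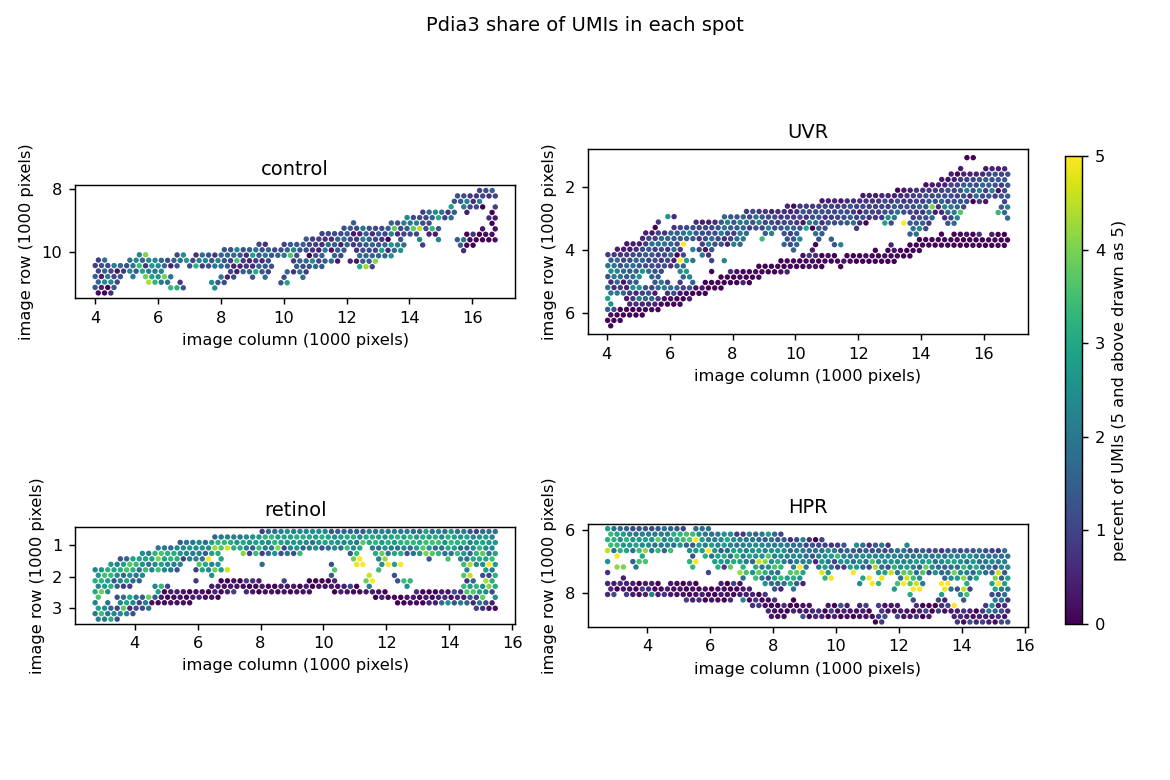
*Pdia3* as a percentage of the UMIs in each kept spot, drawn at the spot's image position for the 4 sections on 1 colour scale. The muscle spots, a band in 3 sections and the right end of the control section, are darkest, and the retinol and HPR sections are brighter than control and UVR skin.

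*Hsp90b1* was higher in the middle than in the outer regions of every section, by 1.86-fold in control skin (1.49 to 2.32), 1.82-fold in UVR skin (1.58 to 2.08), 1.37-fold in retinol skin (1.19 to 1.58) and 1.66-fold in HPR skin (1.42 to 1.92). *Hspa5* showed such a gradient in control skin, where it stood at 284 CPM in the outer regions (217 to 364) and 849 CPM in the middle (650 to 1091), 2.99-fold higher (2.07 to 4.34). In the other sections its middle over outer ratio was 1.14 (0.912 to 1.40) in UVR skin, 0.912 (0.730 to 1.13) in retinol skin and 1.11 (0.851 to 1.42) in HPR skin. All 3 of these intervals include 1. Plasma cells, which secrete antibody and are known for high ER chaperone levels, can lie in this layer. The summed CPM of their 8 markers in the middle region ran from 1575 in retinol skin to 5654 in UVR skin, with 5 to 7 of 8 detected and *Tnfrsf17* at 0 in 3 of the sections; the part of these cells in the member levels was not tested. The middle region of retinol skin had the lowest of these sums, with *Hspa5* at 1058 CPM (852 to 1297) and *Hsp90b1* at 2575 CPM (2249 to 2935) there. In UVR skin, with the highest sum, they stood at 871 CPM (702 to 1069) and 2103 CPM (1835 to 2398).

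**Figure D3:**
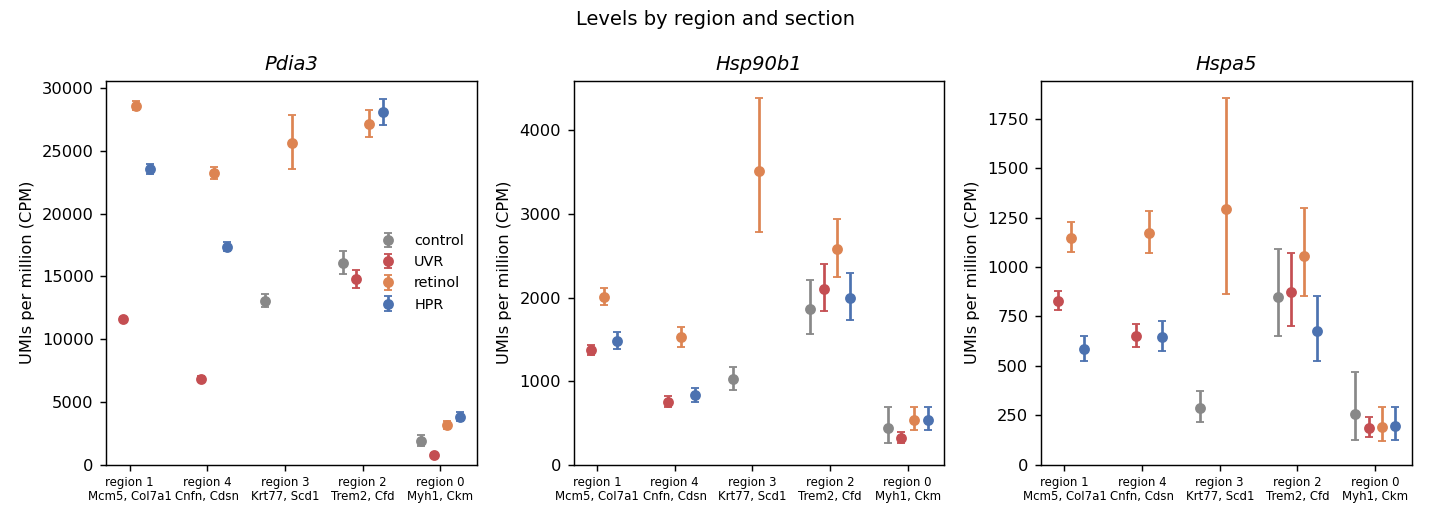
Levels of *Pdia3*, *Hsp90b1* and *Hspa5* by region and section, in CPM with exact 95% Poisson intervals, for regions with at least 20000 UMIs in a section. Region names carry 2 of the leading genes; in regions 1 and 4 retinol skin is highest for all 3 genes, and over muscle (region 0) *Hspa5* lies between 185 and 255 CPM with overlapping intervals.

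The comparison of UVR with control skin asks what irradiation changed. *Hspa5* was higher in UVR skin and *Pdia3* lower. *Hsp90b1* was near 1 over whole sections, and *Calr* was read at too few UMIs to tell. Over whole sections *Hspa5* was 1.73-fold higher (1.45 to 2.08), and in the outer regions 2.70-fold higher (2.09 to 3.55), at 766 CPM against 284 CPM. In the middle region its ratio was 1.03 (0.734 to 1.44). *Pdia3* was 1.38-fold lower in UVR skin over whole sections (1.33 to 1.42). The outer regions gave 1.32-fold (1.27 to 1.37) and the muscle region 2.38-fold (1.81 to 3.10). *Hsp90b1* had a ratio of 0.972 (0.871 to 1.09) over whole sections and 1.15 (1.00 to 1.33) in the outer regions, and *Calr* 0.843 (0.511 to 1.47) and, in the outer regions, 0.677 (0.392 to 1.25). Of the 4 members whose UMIs in both sections together reached 100, 1 was at least 1.5-fold higher and 0 were that much lower. Among 2510 genes with as many UMIs, 24.4% were at least 1.5-fold higher and 16.8% lower. The outer regions gave the same member counts, against 29.8% and 15.7% of 2057 genes. At 2-fold, 0 members were called over whole sections (12.4% of genes higher, 7.61% lower), and *Hspa5* alone in the outer regions (16.5% higher, 7.19% lower). *Hspa5* exceeded 82.6% of genes over whole sections and 90.4% in the outer regions.

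Composition moved with this comparison. The summed spinous and cornified keratinocyte markers were lower in UVR skin, at 20386 against 80991 CPM in the outer regions, with 6 of 9 measured genes at least 1.5-fold lower and 2 higher. The basal sum was higher, at 59937 against 24694 CPM, but of its 5 measured genes 2 were higher and 2 lower. Macrophage and dendritic markers stood at 116 CPM in UVR skin (9 of 10 detected, *Lyz2* at 0) against 930 CPM in control skin (7 of 10 detected, *Cd68*, *C1qc* and *Lyz2* at 0). Sebaceous gland markers stood at 1236 against 2980 CPM, all 8 detected in both, and fibroblast markers at 258 against 767 CPM, with *Lum* and *Pdgfra* at 0 in control skin. The part of these cell types in the member differences was not tested. The outer *Hspa5* level was not even over the sections: in control skin the left image side had 202 CPM (125 to 308) and the right 360 CPM (258 to 491), and in UVR skin the left had 614 CPM (565 to 667) and the right 883 CPM (830 to 937). Either UVR side was above either control side. Region 3, which holds most outer control spots, had enough UMIs for a second section only in retinol skin, on the other area. There *Hspa5* stood at 1292 CPM (865 to 1855, 29 UMIs) in retinol and 287 CPM (218 to 371, 58 UMIs) in control skin, and *Hsp90b1* at 3518 CPM (2785 to 4385) and 1023 CPM (889 to 1173). Reading groups by the spot grid turns this comparison around, so that *Hspa5* would be 1.73-fold lower and *Pdia3* 1.38-fold higher in UVR skin.

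**Figure D4:**
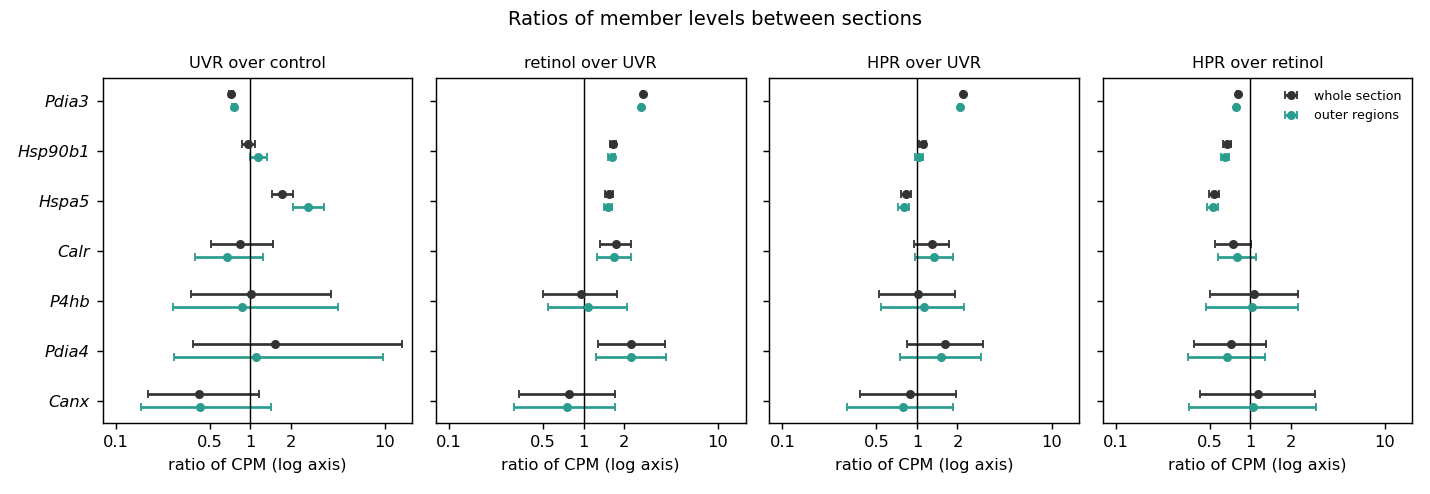
Ratios of CPM for the 7 measured members in the 4 comparisons, on a log axis, over whole sections and in the outer regions, with exact 95% intervals from the binomial split of UMIs. For retinol over UVR, *Pdia3*, *Hsp90b1*, *Hspa5*, *Calr* and *Pdia4* have intervals above 1; for HPR over retinol, *Pdia3*, *Hsp90b1* and *Hspa5* have intervals below 1.

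Retinol against UVR skin asks what retinol treatment changed in irradiated skin. All 4 members with enough UMIs were higher in retinol skin, and *Pdia3* most. *Pdia3* was 2.75-fold higher over whole sections (2.71 to 2.80), 2.68-fold in the outer regions (2.64 to 2.73), 1.84-fold in the middle (1.72 to 1.96) and 3.95-fold over muscle (3.35 to 4.66). *Calr* was 1.73-fold higher (1.33 to 2.26), *Hsp90b1* 1.65-fold (1.57 to 1.75) and *Hspa5* 1.54-fold (1.44 to 1.65). Of the 4, 4 were at least 1.5-fold higher, against 14.2% of 2932 genes, and 0 were that much lower, against 20.5%. The same 4 of 4 were higher in the outer regions, against 15.7% of 2460 genes, and 0 lower, against 20.2%. At 2-fold *Pdia3* alone was called, against 4.23% of genes higher and 9.11% lower over whole sections and 5.12% and 9.8% in the outer regions. *Hspa5* was just inside the 1.5-fold limit in the outer regions, at 1.52-fold (1.41 to 1.63). *Pdia3* exceeded 98.5% of genes over whole sections, *Calr* 91.8%, *Hsp90b1* 90.1% and *Hspa5* 87.2%. The members' median log2 ratio was 0.76, against -0.05 over all genes tested; the members had been picked with such values known. *Pdia4*, below the UMI minimum, was 2.26-fold higher (1.28 to 4.04), whereas *P4hb* (0.961, 0.50 to 1.78) and *Canx* (0.786, 0.334 to 1.72) were not distinguishable from 1.

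For *Hspa5*, *Hsp90b1* and *Pdia3* the difference was larger in region 4, led by cornification genes, than in region 1, with intervals that did not overlap. In region 4 *Hspa5* was 1.80-fold higher in retinol skin (1.59 to 2.05) and in region 1 1.39-fold (1.27 to 1.51). *Hsp90b1* was 2.03-fold higher in region 4 (1.80 to 2.28) and 1.47-fold in region 1 (1.37 to 1.57). *Pdia3* was 3.38-fold higher in region 4 (3.27 to 3.5) and 2.46-fold in region 1 (2.41 to 2.51). Over muscle *Hspa5* had a ratio of 1.04 (0.607 to 1.73), and in the middle region 1.21 (0.899 to 1.64). Marker levels moved as well. The summed basal keratinocyte markers of the outer regions stood at 35338 CPM in retinol skin against 59937 CPM in UVR skin (3 of 5 measured genes at least 1.5-fold lower), and the spinous and cornified ones at 13797 against 20386 CPM (5 of 9 lower). Macrophage and dendritic markers stood at 447 CPM (7 of 10 detected, *C1qb*, *Lyz2* and *Trem2* at 0) against 116 CPM, with 2 of 2 measured genes higher. Fibroblast markers stood at 508 CPM (6 of 8 detected, *Lum* and *Pdgfra* at 0) against 258 CPM (8 of 8 detected), with 3 of 3 higher, and muscle markers at 245 against 846 CPM, with 4 of 4 lower. Their part in the result was not tested. Under the spot-grid reading only *Pdia3* of the 4 members kept a difference of 1.5-fold or more over whole sections, at 1.60-fold. *Hspa5* would be at 1.43-fold, *Calr* at 1.09-fold and *Hsp90b1* at 1.07-fold. In the outer regions *Hspa5* would be 2.15-fold higher, *Pdia3* 1.59-fold and *Hsp90b1* 1.20-fold, and the *Calr* ratio would be 0.906. Over muscle that reading sets *Pdia3* at 3821 against 1890 CPM, in place of 3133 against 794 CPM.

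HPR against UVR skin asks the same of 9-cis HPR. *Pdia3* was higher in HPR skin and *Hspa5* lower. *Hsp90b1* was near the UVR level, and the sparser members could not be told from 1 at their counts. *Pdia3* was 2.20-fold higher over whole sections (2.16 to 2.24), 2.10-fold in the outer regions (2.06 to 2.14), 1.90-fold in the middle (1.79 to 2.02) and 4.81-fold over muscle (4.12 to 5.65). *Hspa5* was 1.21-fold lower over whole sections (1.11 to 1.32), and its outer-region difference was 1.25-fold (1.14 to 1.38). *Hsp90b1* was 1.10-fold higher over whole sections (1.04 to 1.18) but had an outer ratio of 1.04 (0.972 to 1.12), and *Calr* had a ratio of 1.29 (0.953 to 1.74). For *Pdia4*, below the UMI minimum, the ratio was 1.62 (0.839 to 3.09). Of the 4 members with enough UMIs, 1 was at least 1.5-fold higher, against 11.1% of 2813 genes, and 0 were lower, against 22.9%. The outer regions gave the same counts, against 9.28% and 25.2% of 2361 genes. *Pdia3* was the 1 member past 2-fold, against 3.41% of genes higher and 9.21% lower over whole sections and 2.8% and 9.95% in the outer regions. *Hspa5* was 1.42-fold lower in region 1 (1.26 to 1.61), but in region 4 its ratio was 0.994 (0.855 to 1.15). Without *Pdia3* the sum over the members had a ratio of 1.01 (0.957 to 1.06). Marker sums of the outer regions moved here too, and their part was not tested. Fibroblast markers stood at 989 CPM in HPR skin (6 of 8 detected, *Lum* and *Pdgfra* at 0) against 258 CPM in UVR skin, with 3 of 3 measured genes higher, and macrophage and dendritic ones at 455 CPM (8 of 10 detected, *C1qb* and *Lyz2* at 0) against 116 CPM, with 2 of 2 higher. Basal keratinocyte markers stood at 32179 against 59937 CPM and muscle markers at 306 against 846 CPM, with 4 of 5 measured genes lower in each list. Under the spot-grid reading *Hspa5* would instead be 2.66-fold higher over whole sections, *Pdia3* 2.00-fold, *Hsp90b1* 1.61-fold and *Calr* 1.46-fold. In the outer regions these would be 4.09-fold, 2.035-fold, 1.87-fold and 1.13-fold. Over muscle that reading sets *Pdia3* at 3133 against 1890 CPM, in place of 3821 against 794 CPM.

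HPR and retinol skin lay on 1 capture area and can be set side by side there, with the concentrations differing. Each of *Hspa5*, *Hsp90b1* and *Pdia3* was lower in HPR skin, *Hspa5* most. *Hspa5* was 1.86-fold lower over whole sections (1.71 to 2.04), 1.90-fold in the outer regions (1.73 to 2.09) and 1.57-fold in the middle (1.14 to 2.17). Regions 1 and 4 were much alike for *Hspa5*, at 1.97-fold lower (1.74 to 2.23) and 1.81-fold lower (1.56 to 2.11). Over muscle its ratio was 1.02 (0.542 to 1.91). *Hsp90b1* was 1.5-fold lower over whole sections (1.41 to 1.60) and 1.56-fold in the outer regions (1.45 to 1.67), and over muscle its ratio was 1.00 (0.695 to 1.45). For *Hsp90b1* region 4 had the larger difference, 1.84-fold lower (1.61 to 2.10), against 1.35-fold (1.25 to 1.47) in region 1. *Calr* was 1.34-fold lower, with a ratio interval from 0.549 to 1.01 that includes 1. *Pdia3* was 1.25-fold lower over whole sections (1.23 to 1.27). Its ratio was 0.783 (0.770 to 0.797) in the outer regions, 1.03 (0.979 to 1.09) in the middle and 1.22 (1.06 to 1.41) over muscle.

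Of the 4 members with enough UMIs, 1 was at least 1.5-fold lower in HPR than in retinol skin over whole sections, against 9.14% of 2231 genes, and 0 were higher, against 5.11%. For the outer regions 2 were lower, against 11.4% of 1880 genes, and 0 were higher, against 4.52%. At 2-fold 0 members were called, with 0.852% of genes higher and 1.84% lower over whole sections and 0.851% and 2.23% in the outer regions. *Hsp90b1* was the gene on either side of the 1.5-fold limit, at 1.498-fold over whole sections and 1.555-fold in the outer regions. Only 2.65% of genes had a lower ratio than *Hspa5* over whole sections and 2.93% in the outer regions. For *Hsp90b1* those shares were 9.28% and 9.57%. Each image side gave the same order for *Hspa5*: outer levels of 1172 CPM (left) and 1149 CPM (right) in retinol skin against 579 CPM (left) and 643 CPM (right) in HPR skin. Outer marker sums differed here as well. Spinous and cornified keratinocyte markers stood at 23394 CPM in HPR against 13797 CPM in retinol skin, with 6 of 8 measured genes at least 1.5-fold higher, and fibroblast markers at 989 against 508 CPM, with 3 of 3 higher. Basal keratinocyte markers stood at 32179 against 35338 CPM, with 1 of 5 lower, and plasma cell markers at 627 CPM (4 of 8 detected) against 860 CPM (5 of 8 detected). The part of these lists was not tested. The spot grid would turn each of these directions.

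The members kept different proportions to each other in the treated sections. For every 100 *Pdia3* UMIs in the outer regions there were 2.16 *Hspa5* UMIs in control skin (1.65 to 2.78), 7.68 in UVR skin (7.30 to 8.08), 4.34 in retinol skin (4.11 to 4.57) and 2.91 in HPR skin (2.69 to 3.16). The corresponding *Hsp90b1* values were 7.64 (6.62 to 8.77), 11.6 (11.1 to 12.1), 7.01 (6.71 to 7.31) and 5.75 (5.43 to 6.09). UVR skin had the most of both chaperones relative to *Pdia3*, and HPR skin less of both than retinol skin. By region, *Hspa5* per 100 *Hsp90b1* UMIs in region 4 was 86.6 in UVR skin (76.5 to 98.0), 77.1 in retinol skin (68.2 to 87.0) and 78.2 in HPR skin (66.7 to 91.6), with overlapping intervals. In region 1 it was 60.5 in UVR skin (56.2 to 65.2), 57.2 in retinol skin (52.7 to 62.2) and 39.4 in HPR skin (34.7 to 44.7). HPR skin was thus below the others in region 1, where its interval overlapped neither.

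Summed over the 7 measured members, levels were 14070 CPM in control skin, 10912 in UVR skin, 27879 in retinol skin and 21815 CPM in HPR skin. The ratios were 0.776 (0.752 to 0.800) for UVR over control, 2.55 (2.52 to 2.59) for retinol over UVR, 2.00 (1.97 to 2.03) for HPR over UVR and 0.782 (0.770 to 0.795) for HPR over retinol. The outer values were 0.823, 2.5, 1.91 and 0.764 in that order. Without *Pdia3* the whole-section sums were 1625, 1870, 3006 and 1881 CPM in control, UVR, retinol and HPR skin. The UVR over control ratio was then 1.15 (1.05 to 1.26), on the other side of 1 from the full sum.

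Other genes of ER folding were read from lists of partners, whose named genes are the ends of each list; those shown were picked from these ends after their values were seen. List counts and ratios, here and below, are over whole sections unless the outer regions are named. Among 32 listed ER folding partners, 8 had enough UMIs for retinol over UVR skin. Of these 8, 3 were at least 1.5-fold higher and 2 lower, against 14.2% and 20.5% of all genes tested. Their median log2 ratio was -0.35, against -0.05 over all genes. The 3 were *Sdf2l1*, which works with an HSPA5 co-chaperone in the ER, *Hyou1*, a large Hsp70-type ER chaperone, and *Manf*, an ER protein induced by stress. *Sdf2l1* stood at 304 CPM in control skin, 254 in UVR skin, 628 in retinol skin and 302 CPM in HPR skin. Its retinol over UVR ratio was 2.47 (2.23 to 2.74), and in HPR skin it was 2.08-fold below retinol skin. *Hyou1* was at 21.5, 55.1, 122 and 60.8 CPM in the same order, 2.22-fold higher in retinol than in UVR skin (1.77 to 2.79) and 2.01-fold lower in HPR than in retinol skin. *Manf* was at 104, 56.3, 97.5 and 58.4 CPM, 1.73-fold higher in retinol skin (1.36 to 2.20) and 1.67-fold lower in HPR than in retinol skin. HPR skin was near the UVR level for these genes, with HPR over UVR ratios of 1.19 (1.05 to 1.35), 1.10 (0.824 to 1.47) and 1.04 (0.772 to 1.39). Read by the spot grid, *Sdf2l1*, *Hyou1* and *Manf* would have retinol over UVR ratios of 0.994, 2.83 and 0.560 and HPR over UVR ratios of 2.07, 5.70 and 0.935.

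Not all folding genes did so. *Qsox1*, a sulfhydryl oxidase, was 1.83-fold lower in retinol than in UVR skin and 1.63-fold lower in HPR than in UVR skin. For HPR over retinol skin, 6 partners could be read, of which 3 were at least 1.5-fold lower, against 9.14% of all genes, and 0 higher, against 5.11%, with a median log2 of -0.39 against -0.09 over all genes. For UVR over control skin 1 of 8 was higher, *Hyou1* at 2.57-fold (1.21 to 6.5), and 2 were lower, against 24.4% and 16.8% of all genes. The median log2 of these 8 was -0.21, against 0.09 over all genes. In the outer regions 2 of 7 were higher and 0 lower, against 29.8% and 15.7% of all genes. The median log2 there was 0.48, against 0.16 over all genes. The spot grid turns this *Hyou1* difference and the HPR over retinol ones.

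**Figure D5:**
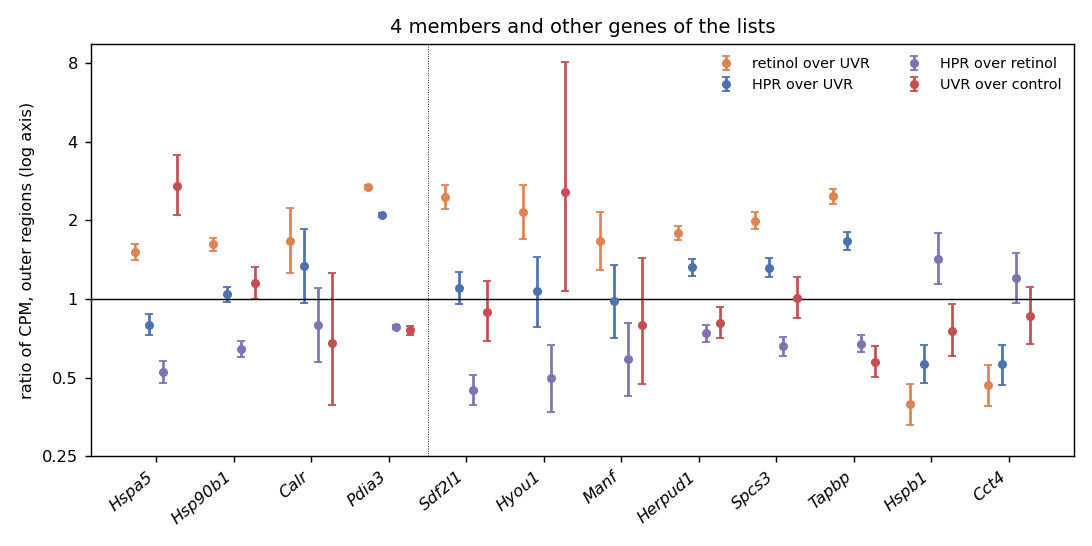
Ratios of CPM in the outer regions, on a log axis with exact 95% intervals, for 4 members (left of the dotted line) and 8 genes of the partner lists. *Sdf2l1*, *Hyou1* and *Manf* lie above 1 for retinol over UVR and below 1 for HPR over retinol, while *Hspb1* and *Cct4* lie below 1 for retinol over UVR. Lower ER genes of the lists are not drawn, among them *Qsox1* (0.529), *Sec61b* (0.430) and *Chac1* (0.389) for outer retinol over UVR. In that comparison 3 of 7 readable folding partners were at least 1.5-fold higher and 2 lower, against 15.7% and 20.2% of all genes. Their median log2 was -0.50, against -0.02 over all genes.

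Among sensors and effectors of the unfolded protein response, 10 of 20 could be read for retinol over UVR skin, with 2 higher and 1 lower. For this and the other counts of retinol over UVR skin, the share of all genes is 14.2% higher and 20.5% lower, and 2 and 1 of 10 lie near it. *Herpud1*, an ER membrane protein of that response, stood at 938, 797, 1454 and 1062 CPM in control, UVR, retinol and HPR skin, 1.83-fold higher in retinol than in UVR skin (1.72 to 1.94). *Chac1*, an enzyme that degrades glutathione and a target of the ATF4 branch, went the other way, at 88.9, 93.8, 33.9 and 51.2 CPM, or 2.77-fold lower in retinol than in UVR skin. In the outer regions, where *Chac1* was below the UMI minimum, its ratio was 0.389 for retinol over UVR and 1.55 for UVR over control skin. For HPR over retinol skin it was 0.625 there, against 1.51 over whole sections. None of 9 readable ER-associated degradation genes was at least 1.5-fold higher in retinol skin, and 1 was lower. In the translocon and N-glycosylation list 2 of 15 were higher and 3 lower. *Spcs3*, a signal peptidase subunit, was 2.01-fold higher (1.88 to 2.16), and *Sec61b*, a subunit of the translocon, was 2.23-fold lower. *Prkcsh*, the beta subunit of glucosidase II, was 1.92-fold higher in UVR than in control skin (1.34 to 2.84) and 1.94-fold lower in HPR than in retinol skin; the spot grid turns both. Read that way, retinol over UVR ratios would be 1.13 for *Herpud1*, 0.576 for *Chac1*, 1.39 for *Spcs3* and 0.370 for *Sec61b*.

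In the MHC class I loading list, 4 of 5 readable genes were lower in UVR than in control skin, against 16.8% of all genes, and 0 higher, against 24.4%. For retinol over UVR skin 2 of 5 were higher, against 14.2% of all genes, and 0 lower, against 20.5%. For HPR over UVR skin 3 of 5 were higher, against 11.1% of all genes, and 0 lower, against 22.9%. *Tapbp* (tapasin), with which PDIA3 forms a disulfide-linked pair, stood at 1171 CPM in control skin, 664 in UVR skin, 1609 in retinol skin and 1149 CPM in HPR skin. Like *Pdia3*, it was lowest in UVR and highest in retinol skin, though control and HPR skin lay close together. *B2m*, the light chain of MHC class I, was 4.29-fold lower in UVR than in control skin, at 45.7 against 196 CPM. Under the spot grid both genes would be lowest in control skin, and the *Tapbp* ratio of retinol over UVR skin would be 0.981. Cytosolic and mitochondrial chaperones had 0 of 7 higher and 3 lower in retinol than in UVR skin, to be read against the same 14.2% and 20.5%. Among them *Hspb1*, a small heat shock protein, was 1.76-fold lower and *Cct4*, a chaperonin subunit, 1.86-fold lower. Of 17 collagen folding genes, 3 could be read, with 0 higher and 2 lower, and of 10 genes of calcium handling in muscle, 8 could be read, with 0 higher and 4 lower, against those same shares.

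Across 16 units, each a region of a section with at least 20000 UMIs, the genes whose log2 CPM was most like that of the summed members were *Acbd3* (Pearson r 0.984), *Paxbp1* (0.980), *Tor2a* (0.978), *Zfp282* (0.978), *Clta* (0.977), *Sfswap* (0.973), *Ahr* (0.973), *Prkd2* (0.972), *Arrdc4* (0.970) and *Ddr1* (0.970), out of 1356 genes with at least 500 UMIs. The sum mirrors *Pdia3*, whose r with it was 0.998, against 0.923 for *Hsp90b1* and 0.865 for *Hspa5*. *Hspa5* and *Hsp90b1* had an r of 0.884 with each other, and *Hspa5* and *Pdia3* 0.847. Units of a section share its library, and those of a capture area share its slide position, so these values describe likeness and are no test.

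Spots with fewer than 200 UMIs, left out above, gave the same order for *Pdia3* only in part. Their summed level was 15686 CPM in control skin, 10669 in UVR skin, 19361 in retinol skin and 21916 CPM in HPR skin. Treated sections were again above untreated ones, but HPR skin was the highest. *Hspa5* in these spots rested on 9 to 28 UMIs per section and was highest in retinol skin, at 1080 CPM (718 to 1561).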

How the data were processed

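The deposited files hold UMI counts of 19465 genes per spot for 2 capture areas, with spot positions. Library chemistry was the probe-based Visium kit for fixed tissue, applied to fresh frozen sections, per the labels' protocols. The authors used Space Ranger 2.0.0 and Seurat 4.1.0 with build mm10, per the submitters' processing notes; how these were combined is not given in the sources used here. Each area was divided into 2 sections by a gap between image rows. Counts were summed over spots with at least 200 UMIs and divided by all UMIs (CPM). Levels carry exact Poisson intervals, and ratios exact Clopper-Pearson intervals from the binomial split of UMIs, at 95%. Genes whose UMIs in both sections together reached 100 were compared, and 1.5-fold and 2-fold were used as sizes. Spots were clustered with 2000 variable genes, 20 components, 15 neighbours and Leiden resolution 0.5 (Python 3.11.15, numpy 2.4.6, scipy 1.17.1, pandas 2.3.3, scanpy 1.11.5, igraph 0.11.9, matplotlib 3.10.9). Steps were tested on simulated data.

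The members and lists were chosen with earlier results of these data known. Of each list, the 2 highest and 2 lowest ratios in a comparison could be named; the 13 named in the text and those plotted were picked from these after their values were seen. The 10 genes most like the summed members were named by correlation. Set after seeing the data were the rule for layers, a 3% keratinocyte marker share (lowered from 10%), the motif without its last base, the sum without *Pdia3*, and resolution 1.0 without a region led by lipid-gland genes. Alternatives covered spot and gene minimums, scaling, image side, the reading of upper and lower, a pseudocount of 1, layer weights and clustering. Doublet calling does not apply to spots.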

Additional observations from a re-analysis of the deposited data

Results flagged for a closer look

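*Pdia3* differed between HPR and retinol skin in opposite directions by layer. In the outer regions its HPR over retinol ratio was 0.783 (0.770 to 0.797), with a level of 20950 CPM in HPR and 26755 CPM in retinol skin. Over muscle the ratio was 1.22 (1.06 to 1.41), with 3821 CPM (449 UMIs) against 3133 CPM (358 UMIs). Each layer had 1 section a group, so the difference between layers was not tested. In the muscle spots *Krt5* stood at 7.67% of its outer level in HPR skin and 6.20% in retinol skin, and *Pdia3* at 18.2% and 11.7%; the part of RNA from outside the muscle was not tested.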

How the results depend on the processing

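Counting intervals leave out the spread between animals, which 1 section a group cannot give. No paired analysis was possible because each group had 1 section. Depth limits *Canx*, *P4hb* and *Pdia4*, with 2 to 32 UMIs a section. Use of all tissue spots, a pseudocount of 1, Leiden resolutions 0.3 and 1.0, and member genes in the clustering left the summed ratios within their intervals; all tissue spots could not be split into regions, so the outer values were not run. In whole sections, the summed UVR over control ratio of 0.776 was 0.808 with spots of at least 500 UMIs, 0.821 without the 50 most abundant genes, 0.730 with the median gene ratio set to 0, 0.728 on the left and 0.826 on the right image side, 0.865 with layers weighted equally, 1.29 by the spot grid and 1.15 without *Pdia3*. For retinol over UVR, 2.55 became 2.39 without the 50 most abundant genes, 2.64 with the median gene at 0, 2.45 and 2.65 on the left and right, 2.08 with equal layers, 1.55 by the grid and 1.61 without *Pdia3*. For HPR over UVR, 2.00 became in the same order 1.96, 2.18, 1.95 and 2.04, and 1.87, and 1.01 without *Pdia3*. For HPR over retinol, 0.782 became 0.821 without the 50 genes, 0.830 with the median gene at 0, 0.900 with equal layers, 1.28 by the grid and 0.626 without *Pdia3*. In the outer regions, UVR over control was 0.860 without the 50 genes, 0.736 with the median gene at 0, 1.22 by the grid and 1.43 without *Pdia3*. Outer retinol over UVR was 2.31 without the 50 genes, 2.40 on the left, 2.58 on the right, 1.57 by the grid and 1.58 without *Pdia3*. Outer HPR over UVR was 2.13 with the median gene at 0, 2.06 by the grid, 1.86 on the left, 1.88 in spots chosen by keratinocyte marker share and, turning direction, 0.957 without *Pdia3*. Outer HPR over retinol was 0.821 without the 50 genes, 0.840 with the median gene at 0, 1.31 by the grid, 0.752 on the right, 0.750 by marker share and 0.607 without *Pdia3*. The grid exchanges the sections by construction, and the cause of the other shifts was not tested.

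The grid turns all ratios of UVR over control and of HPR over retinol by construction, those of *Pdia3* (1.38 and 1.25 over whole sections) and *Calr* included. The ratios past 1.5-fold that turned under it are given here. Whole-section ratios turned for UVR over control in *Pdia4* (0.654), *Hspa5* (0.579), *Canx* (2.39), *Hyou1* (0.390), *Manf* (1.85), *Prkcsh* (0.520), *Tapbp* (1.76) and *B2m* (4.29); for retinol over UVR in *Sdf2l1* (0.994), *Manf* (0.560) and *Tapbp* (0.981); for HPR over UVR in *Prkcsh* (2.12) and *B2m* (0.331). For HPR over retinol they turned in *Hspa5* (1.86), *Sdf2l1* (2.08), *Hyou1* (2.01), *Manf* (1.67), *Chac1* (0.662) and *Prkcsh* (1.94). Outer ratios turned for UVR over control in *Hspa5* (0.370), *Canx* (2.37), *Hyou1* (0.388), *Chac1* (0.646), *Prkcsh* (0.522), *Tapbp* (1.74) and *B2m* (5.17), and for retinol over UVR in *Calr* (0.906), *Sdf2l1* (0.988), *Manf* (0.784) and *Tapbp* (0.959). They turned for HPR over UVR in *Prkcsh* (2.05) and *B2m* (0.266), and for HPR over retinol in *Hspa5* (1.90), *Hsp90b1* (1.56), *Sdf2l1* (2.23), *Hyou1* (2.00), *Manf* (1.70), *Chac1* (1.60), *Spcs3* (1.51), *Prkcsh* (1.93) and *B2m* (0.613). With equal layers *Hspb1* turned for retinol over UVR (1.04).

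The number of genes past 1.5-fold depends on the UMI minimum. Over whole sections, at 100, 20 and 500 UMIs, UVR over control had 613, 1317 and 201 genes higher and 422, 1743 and 99 lower. Retinol over UVR had 416, 1042 and 191 higher and 600, 1690 and 183 lower. HPR over UVR had 311, 956 and 147 higher and 645, 1806 and 172 lower, and HPR over retinol 114, 614 and 20 higher and 204, 762 and 41 lower. In the outer regions UVR over control had 613, 1292 and 180 higher and 323, 1324 and 89 lower. Outer retinol over UVR had 386, 964 and 164 higher and 497, 1406 and 162 lower, outer HPR over UVR 219, 717 and 110 higher and 596, 1587 and 146 lower, and outer HPR over retinol 85, 482 and 15 higher and 215, 760 and 41 lower.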
